A study of Mus musculus with 6 samples.

Results

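Genes of the lipid droplet and of fat cell formation were followed in mouse C2C12 myoblasts given pyruvate: the perilipins Plin2, Plin3 and Plin4, the lipases Lpl and Pnpla2, the adipogenic factors Cebpa, Cebpb, Cebpd and Pparg, and the fatty acid carrier Fabp4. Every probe set whose only gene symbol on the array annotation was one of these 10 was taken, which gave 17 probe sets of the 45101 in the value table, for 10 of the 18193 genes that have a probe set of 1 symbol. The genes were chosen by their role and with their pyruvate minus untreated log2 changes on these same arrays in view. C2C12 is an established mouse myoblast line that can be driven to form myotubes. The pyruvate group (3 samples, 1 array each) spent 72 h in 100 mm dishes in DMEM made without sodium pyruvate, to which 50 mM sodium pyruvate, 10% fetal bovine serum, 4 mM L-glutamine and 1% antibiotics were added. The untreated group (3 samples, 1 array each) spent 72 h in basal medium, DMEM with the same serum, glutamine and antibiotics. The labels do not state how much pyruvate that DMEM itself contained. Both groups were undifferentiated by their labels, and the pyruvate medium also carried the added sodium, for which these groups hold no control. Nothing in the labels tells whether replicates came from separate dishes or passages, so p-values measure the spread between these samples only, which may be technical.

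Cells store fatty acids as triglyceride in lipid droplets, whose surface is coated by perilipins. Lipoprotein lipase (Lpl) frees fatty acids from circulating lipoproteins outside the cell, and adipose triglyceride lipase (Pnpla2) takes the first fatty acid off stored triglyceride inside it. In preadipocytes C/EBP-beta and C/EBP-delta act early and switch on C/EBP-alpha and PPAR-gamma, which then drive fat cell genes such as Fabp4; PPAR factors also drive perilipin and lipase genes in several tissues.

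As a picture of where these factors could bind, RefSeq sequence upstream of the start site (build GRCm38.p6) was read for the 7 of 10 genes it covered; Lpl, Cebpd and Fabp4 had no entry. The stretches below are those of Plin4, which differed most between the groups, of Plin2, of Cebpa, and of the downstream start site of Pparg, a gene that C/EBP factors act on. All run 5′ to 3′ on the gene's own strand, and only bases outside the annotated gene are printed for Plin2 and Plin4. Capitals mark the half-site of nuclear receptors such as PPAR (AGGTCA), the C/EBP motif (TTGCNNAA), the TATA box (TATAAA) and the CCAAT box (CCAAT), each on either strand.
Plin4, chr17:56109949-56110032, minus strand: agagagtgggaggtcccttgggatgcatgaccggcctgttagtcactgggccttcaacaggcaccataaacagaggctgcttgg
Plin2, chr4:86670218-86670309, minus strand: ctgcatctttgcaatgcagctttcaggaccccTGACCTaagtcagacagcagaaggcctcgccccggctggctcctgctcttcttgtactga
Cebpa, chr7:35119043-35119292, plus strand: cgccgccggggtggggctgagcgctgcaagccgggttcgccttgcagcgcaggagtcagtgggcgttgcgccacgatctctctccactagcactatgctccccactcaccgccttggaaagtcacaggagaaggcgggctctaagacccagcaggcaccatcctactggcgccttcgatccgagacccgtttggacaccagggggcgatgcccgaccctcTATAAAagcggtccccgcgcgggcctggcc
Pparg, chr6:115421816-115422065, plus strand: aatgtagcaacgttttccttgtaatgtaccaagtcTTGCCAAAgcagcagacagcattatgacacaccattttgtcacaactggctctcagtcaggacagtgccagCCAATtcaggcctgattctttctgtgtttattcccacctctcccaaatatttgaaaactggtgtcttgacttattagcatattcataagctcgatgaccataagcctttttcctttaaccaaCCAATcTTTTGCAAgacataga
The Plin2 stretch held 1 half-site, on the opposite strand and starting 218 bases before the start site (-218). Cebpa held a TATA box at -30. The Pparg stretch held C/EBP motifs at -215 and at -16, the second on the opposite strand, and CCAAT boxes at -144 and -22, with no overlap between them. The Plin4 stretch held none of the 4; Plin4 and Plin2 each held a CCAAT box nearer the start site than the bases printed, at -18 on the opposite strand and at -73. The other start sites of Pparg held half-sites at -28 and -9. The one with the half-site at -9 also held a TATA box at -29 and a CCAAT box at -83, both on the opposite strand. All Pparg stretches, the printed one among them, lie wholly inside the annotated gene. Plin3 held a CCAAT box at -75 on the opposite strand. In the 250 bases before all 32851 start sites of the table, the half-site occurred in 14.0%, the C/EBP motif in 9.56%, the TATA box in 12.4% and the CCAAT box in 33.8%. The full PPAR element searched, AGGTCANAGGTCA, occurred in 0.0335% and before no start site of the 7 genes. A match is a run of letters and not evidence of binding.

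Of the 17 probe sets, 11 had a mean signal at or above the array-wide median (a signal of about 30.3) and entered the fit; they stand for 9 of the 10 genes. Changes are differences in mean log2(signal + 16), pyruvate minus untreated, so they understate the change of dim genes. A probe set is said to pass when its adjusted p in the limma fit over all 22519 probe sets is under 0.05. In that fit 9 of the 11 passed, all higher with pyruvate and 0 lower, where 16.3% of all probe sets tested passed as higher, 15.9% as lower and 32.2% in either direction. Log2 changes of at least 0.25, 0.5 and 1 were seen in 8, 4 and 2 of the 11, against 15.8%, 4.13% and 0.466% of all probe sets tested. The median change of the 11 was 0.44, and that of all probe sets tested was -0.01. Because of how the genes were chosen, these counts and the changes below describe them and are no test. Values of different probe sets cannot be ranked against each other as levels.

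Among the perilipins, the largest difference was that of Plin4 (probe set 1418595_at), which coats small, newly forming droplets in fat cells. Its signal was 192, 237 and 213 on the pyruvate arrays, against 63.0, 55.0 and 57.2 on the untreated arrays. The groups were far apart and the untreated arrays were close together. The mean was 214 ± 22.7 in pyruvate cells and 58.4 ± 4.13 in untreated cells (SD, n = 3 each), a ratio of 3.66 and a log2 change of 1.62 (SE 0.10). Its neighbour on chromosome 17, Plin5, the perilipin of oxidative tissues, lay below the filter at 10.1 ± 5.52 in pyruvate and 15.9 ± 5.99 in untreated cells (SD, n = 3 each) on its brighter probe set, and the groups overlapped.

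Plin2 (1448318_at), the perilipin found on droplets of most cell types, had signals of 2922, 2937 and 2909 in pyruvate cells and 2241, 2283 and 2187 in untreated cells. Both groups were tight and did not overlap. The ratio of the means was 1.31 and the log2 change 0.38 (SE 0.04). Bright probe sets as a class were higher on the pyruvate arrays: the 864 with a mean log2 value of 11 or more had a median change of 0.23. Of them 68.9% passed in either direction, a share that was not split into higher and lower. The 18 spiked-in control probe sets above the filter averaged 9.53, 10.0 and 9.68 on the log2 scale on the pyruvate arrays and 9.13, 9.21 and 9.17 on the untreated arrays (a difference of 0.58, exact permutation test, two-sided, p = 0.1, the smallest p that 3 against 3 arrays allow). In 17 of these 18 every pyruvate array lay above every untreated array. Over all 45 spiked-in probe sets the difference was 0.26, with the same p in the exact permutation test. The changes of Plin2, Plin3, Pnpla2, Cebpb, Cebpd and Pparg were smaller than the 0.58 of the 18. The part of the control difference in the member changes was not tested. The Plin2 change was 0.28 after quantile normalization and 0.26 after cyclic loess, which align bright probe sets between arrays, and it passed in both.

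Plin3 (1416424_at), a perilipin that moves from the cytosol to new droplets, differed least of the 11. Its signals were 678, 695 and 623 in pyruvate cells and 592, 543 and 606 in untreated cells. The lowest pyruvate array lay just above the highest untreated array. The log2 change was 0.19, with a 95% interval of 0.06 to 0.33. It passed in 8 of 15 processing alternatives, and no longer passed without pyruvate replicate 1 (0.18), without pyruvate replicate 2 (0.16), without untreated replicate 1 (0.21) or without untreated replicate 2 (0.15).

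**Figure D1:**
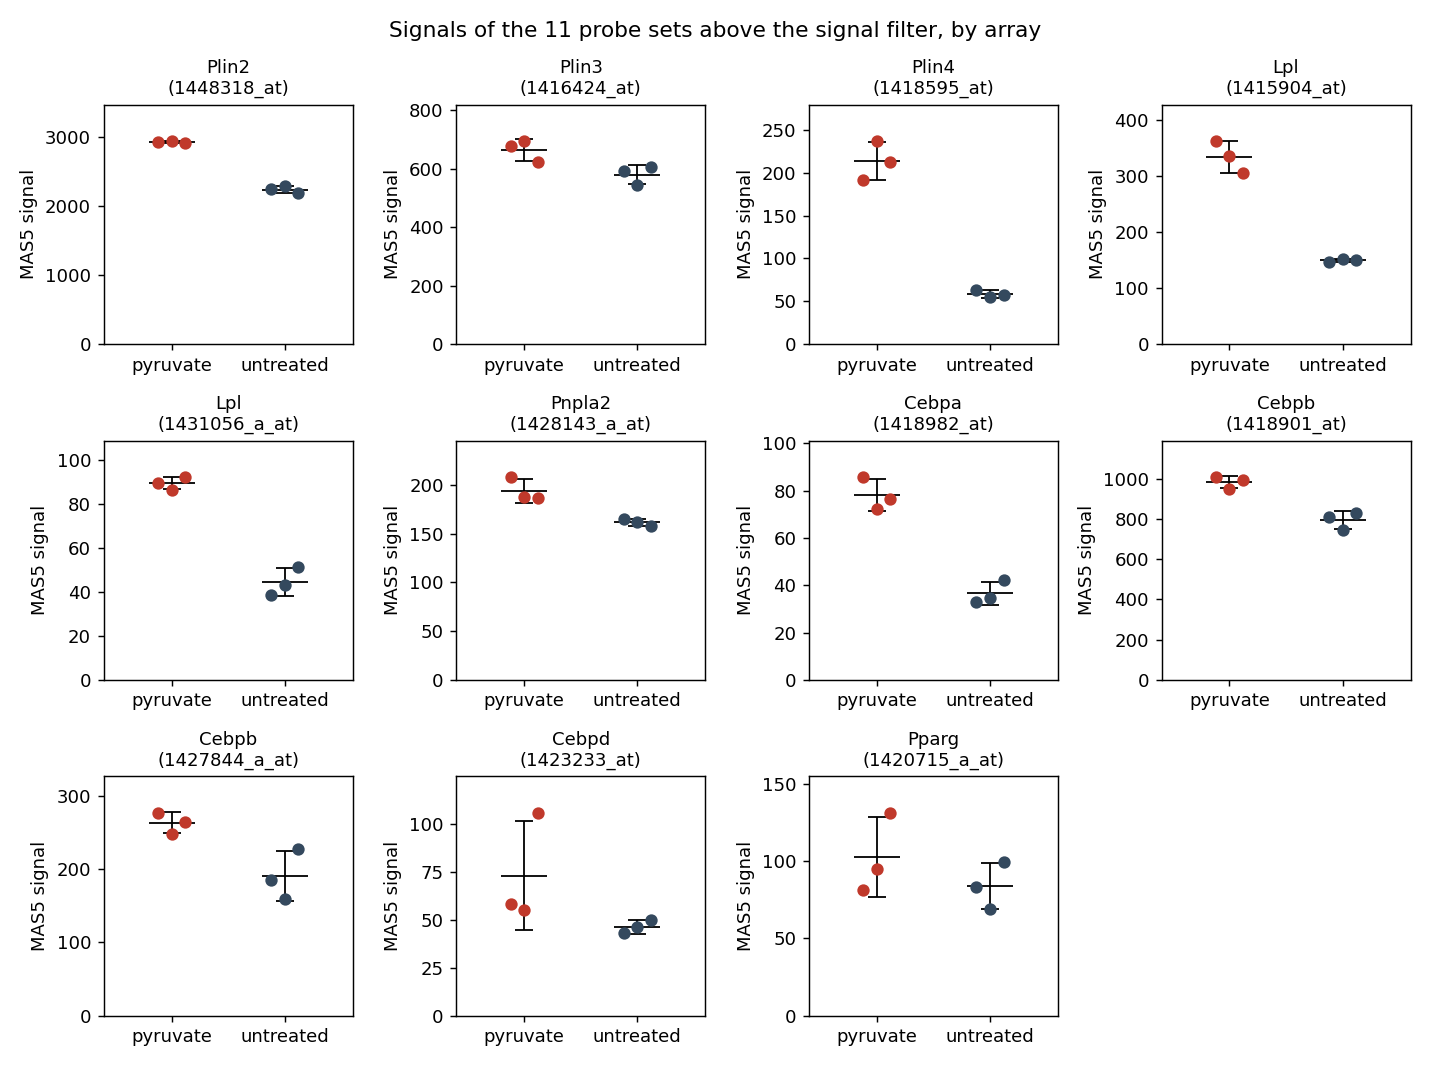
MAS5 signal (vertical axes, linear from 0) of the 11 probe sets above the signal filter, with 3 pyruvate arrays (red, left) and 3 untreated arrays (dark, right) in each panel; the black marks are the mean and the SD. The Plin4, Lpl and Cebpa groups are widely separated, the Plin3 groups nearly touch, 1 pyruvate array stands alone for Cebpd, and the Pparg groups overlap.

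Of the lipases, Lpl was higher with pyruvate on both of its probe sets. The brighter one (1415904_at) read 362, 335 and 305 in pyruvate cells against 147, 151 and 150 in untreated cells. The mean was 334 ± 28.5 in pyruvate cells and 149 ± 2.39 in untreated cells (SD, n = 3 each), a ratio of 2.24 and a log2 change of 1.08 (SE 0.08). The dimmer one (1431056_a_at) read 89.6, 86.5 and 92.2 in pyruvate cells and 38.7, 43.0 and 51.3 in untreated cells. Its ratio of means was 2.02 and its log2 change 0.81 (SE 0.12), which became 0.50 with a pseudocount of 64 and 1.01 with a pseudocount of 1. The groups did not overlap on either probe set, and both passed in every alternative in which they were tested.

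Pnpla2 differed by less. Its brighter probe set (1428143_a_at) read 208, 187 and 187 in pyruvate cells and 165, 162 and 158 in untreated cells. The groups did not overlap, and the log2 change was 0.24 with a 95% interval of 0.07 to 0.41. It passed in 11 of 15 alternatives, and no longer passed without pyruvate replicate 1 (0.19) or without untreated replicate 1 (0.25), 2 (0.24) or 3 (0.22). The other Pnpla2 probe set (1428591_at) was below the filter, between 3.7 and 15.2 on the pyruvate arrays and between 3.3 and 12.3 on the untreated arrays, and shows no direction.

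Among the C/EBP factors, Cebpa, the factor of the later stage of fat cell formation, differed most. Its only probe set (1418982_at) read 85.8, 72.4 and 76.7 in pyruvate cells, against 33.1, 34.5 and 42.1 in untreated cells. The groups were well separated, although the untreated values lie close to the filter. The mean was 78.3 ± 6.84 in pyruvate cells and 36.6 ± 4.84 in untreated cells (SD, n = 3 each), a ratio of 2.14. The log2 change was 0.84 (SE 0.12), and it was 0.50 with a pseudocount of 64 and 1.08 with a pseudocount of 1.

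Cebpb, an early factor that also serves in inflammatory responses, was higher on both probe sets. The brighter (1418901_at) read 1007, 949 and 994 in pyruvate cells and 809, 746 and 829 in untreated cells, a log2 change of 0.30 (SE 0.05). The dimmer (1427844_a_at) read 277, 249 and 264 in pyruvate cells and 186, 160 and 228 in untreated cells, a change of 0.44 (SE 0.11). The untreated arrays of the dimmer probe set varied more, but in neither did the groups overlap, and both passed in all 15 alternatives.

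Cebpd, the partner of Cebpb early in fat cell formation, did not pass. Its brighter probe set (1423233_at) read 58.4, 55.0 and 105.8 in pyruvate cells and 42.9, 46.1 and 49.9 in untreated cells. All pyruvate arrays lay above the untreated ones, but pyruvate replicate 3 stood far above the other two. The log2 change was 0.47 with a 95% interval of 0.06 to 0.88, and 0.22 without pyruvate replicate 3. It passed only without pyruvate replicate 2 (0.61) and with the replicate number as a block (0.47). Its other probe set (1456605_at) lay between 7.7 and 20.1 on the pyruvate arrays and between 2.5 and 19.5 on the untreated arrays, below the filter and overlapping.

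Pparg, the factor without which fat cells do not form, did not pass either. Its probe set (1420715_a_at) read 81.2, 95 and 131 in pyruvate cells and 83.0, 69.3 and 99.3 in untreated cells. This was the only one of the 11 whose groups overlapped. In the other 10 every pyruvate array lay above every untreated array, as in 22.9% of all probe sets tested; 22.5% had every pyruvate array below, so that the groups did not overlap in 45.4%. The log2 change was 0.24 with a 95% interval of -0.11 to 0.58, so neither no change nor a rise of the size seen for Cebpb lies outside it. Without pyruvate replicate 3 the change was 0.07, without pyruvate replicate 1 it was 0.37, and without untreated replicate 2 it was 0.13; it passed in 0 of 14 alternatives. The array annotation gives 1 Pparg probe set, which cannot separate transcripts from different start sites here.

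Fabp4, a carrier abundant in fat cells and a target of PPAR-gamma, was near the floor of the arrays on all 4 of its probe sets. The first (1417023_a_at) read 12, 11.6 and 15.9 in pyruvate cells and 9.0, 8.5 and 3.0 in untreated cells, with no overlap. The others (1424155_at, 1425809_at and 1451263_a_at) overlapped between groups, and their highest value on any array was 26.1, on a pyruvate array. All 4 lay below the filter, and in the fit without it none of the 6 member probe sets below the filter passed, where 12.9% of all 45037 probe sets did, 6.59% as higher and 6.26% as lower. At these signals a change in Fabp4 could not be resolved.

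**Figure D2:**
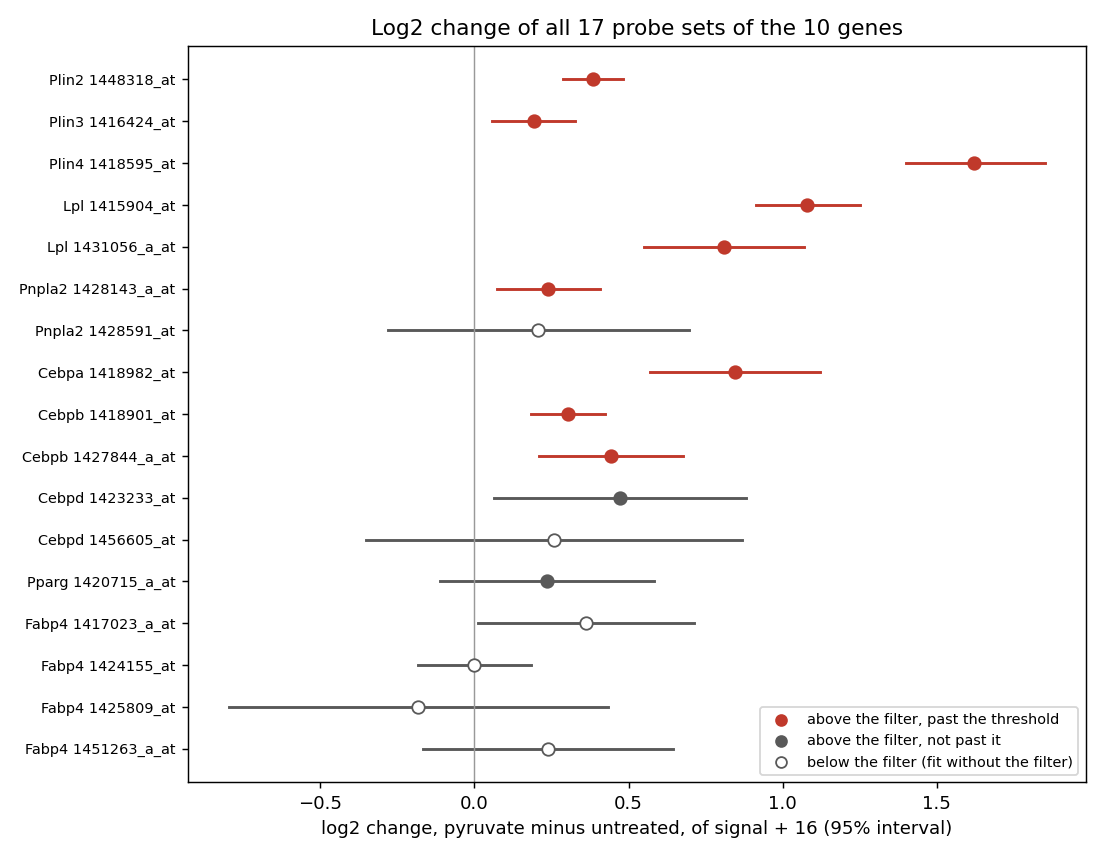
Log2 change, pyruvate minus untreated, of signal + 16 (horizontal axis) with its 95% interval for all 17 probe sets; red points passed, grey points did not, and open points lay below the signal filter and come from the fit without it. Plin4 (1.62) and Lpl (1.08) stand furthest to the right, and the intervals of Pparg, of 3 Fabp4 probe sets and of the dimmer Pnpla2 and Cebpd probe sets include 0.

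**Figure D3:**
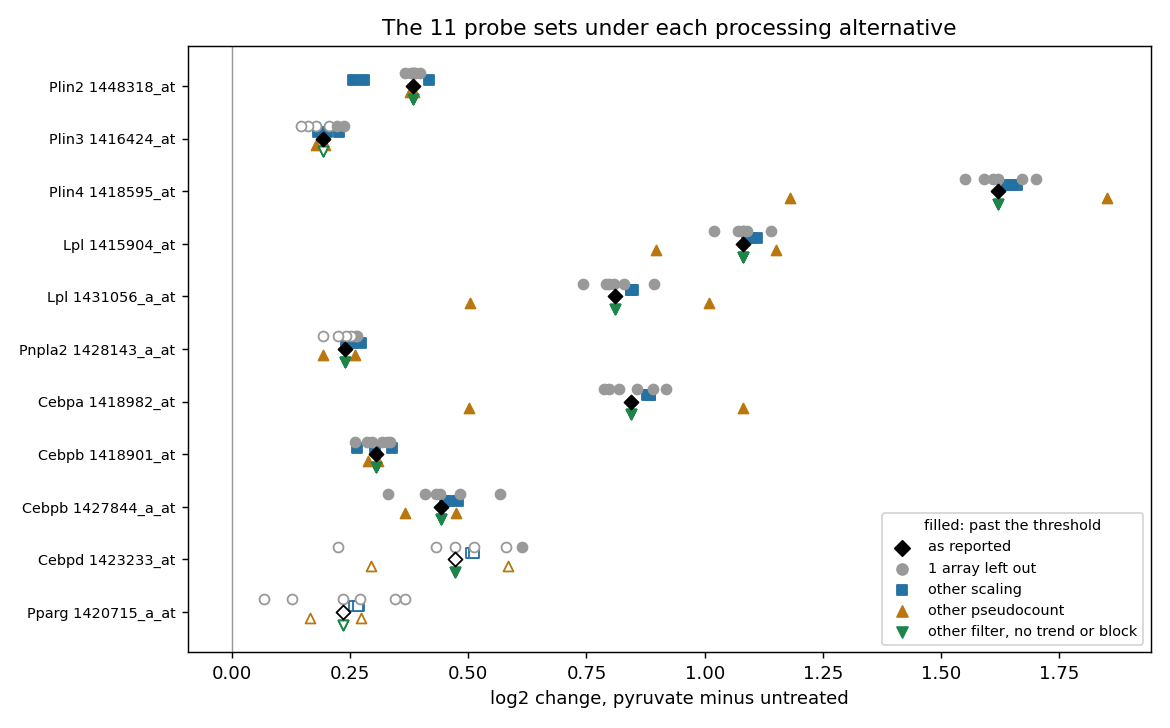
Log2 change (horizontal axis) of the 11 probe sets as reported (diamonds) and under each processing alternative; filled symbols passed and open ones did not. All 160 values are above 0; Plin3, Pnpla2 and Cebpd change between filled and open, and the pseudocount moves Plin4, the dimmer Lpl probe set and Cebpa most.

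The genes whose profiles over the 6 arrays lay closest to that of Plin4 were Cck, Cxcl5, Selp, Ccn2 and Ephx1. Their distances, on log2 values centred on each gene's mean, were 0.30 to 0.36 among 10328 genes searched, and their own changes were 1.47 to 1.85. For Plin3 the closest were Cdk5, Commd2, Crabp2, Ano10 and Ttc8, with distances of 0.03 to 0.06 and changes of 0.17 to 0.22. The distance includes the difference between the groups, so genes with a similar change lie close by construction. Closeness here is no evidence of shared regulation.

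Other genes of lipid storage and adipogenesis were read from 6 lists written from textbook roles, with 1 probe set per gene, the brightest. The lists were written with earlier results of these data known, so their counts and shares describe them and are no test. Of 104 listed genes 90 had a probe set and 72 entered the fit. In these 72, 22 rose and 8 fell with pyruvate, 30.6% and 11.1%, where 20.7% and 14.5% of all 10685 genes tested did (35.1% in either direction); their median change was 0.13 and that of all genes was 0.03. The 8 that fell were 5 without pyruvate replicate 3 and 5 without untreated replicate 2. Adjusted p-values in the paragraphs on these lists come from the limma fit, adjusted over all probe sets tested.

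Of the other lipid droplet proteins, 2 of 7 rose and 0 fell (median 0.15). Hsd17b11, a droplet-bound dehydrogenase, was at 341 ± 8.28 in pyruvate cells and 272 ± 9.65 in untreated cells (SD, n = 3 each), a log2 change of 0.31 (adjusted p = 0.0024). Rab18, a small GTPase found on droplets, rose by 0.22 (adjusted p = 0.012) on the brighter of its 2 probe sets, while the dimmer did not pass; the call was lost after cyclic loess (adjusted p = 0.10). The fat-specific droplet proteins Cidea and Cidec lay below the filter, at means of at most 5.07 in either group, and Hilpda, which inhibits the Pnpla2 protein, did not pass (0.14, adjusted p = 0.40).

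Among other lipases and their regulators, 4 of 14 rose and 1 fell (median 0.10). Angptl4, a secreted inhibitor of lipoprotein lipase and a PPAR target, was at 387 ± 25.2 in pyruvate cells and 187 ± 17.7 in untreated cells (SD, n = 3 each), a change of 0.99 (SE 0.08) (adjusted p = 6.7e-06). Lipa, the acid lipase of lysosomes, rose by 0.49 (adjusted p = 0.00038) on the brightest of 3 probe sets, and the other 2 did not pass. Abhd12, a lysophospholipid lipase, rose by 0.46 (adjusted p = 0.0011). The gene that fell, Lmf1, which is needed for the maturation of lipoprotein lipase, did so by 0.24 (adjusted p = 0.049) and did not pass after cyclic loess (adjusted p = 0.057) or median centring (adjusted p = 0.11); it is named here after its value was seen. The partners of the Pnpla2 protein did not pass: its activator Abhd5 was at 0.13 (adjusted p = 0.16) and its inhibitor G0s2 at -0.05 (adjusted p = 0.75). Hormone-sensitive lipase, Lipe, was at 34.2 ± 5.58 in pyruvate and 33.0 ± 1.27 in untreated cells (SD, n = 3 each).

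Genes of triglyceride synthesis had 3 of 11 higher and 1 lower (median 0.11). Lpin3, a phosphatidate phosphatase, rose by 0.50 (adjusted p = 0.0045) and the acyltransferase Agpat2, whose loss causes lipodystrophy in humans, by 0.46 (adjusted p = 0.0014). The enzymes of the last step moved apart: Dgat2 fell by 0.31 (adjusted p = 0.045), but did not pass after quantile normalization (adjusted p = 0.057), cyclic loess (adjusted p = 0.051) or median centring (adjusted p = 0.063), and Dgat1, named after its value was seen, rose by 0.26 (adjusted p = 0.011). The second probe set of each did not pass.

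In lipid uptake and binding 3 of 9 rose and 4 fell (median -0.10). Fabp5, a fatty acid carrier of many cell types, was at 1471 ± 89.5 in pyruvate cells and 2492 ± 8.10 in untreated cells (SD, n = 3 each). Its log2 change was -0.76 (SE 0.05, adjusted p = 2.1e-06), and its other probe set also fell. Acsl3, an acyl-CoA synthetase of nascent droplets, was at 431 ± 33.9 in pyruvate and 769 ± 28.0 in untreated cells (-0.81, adjusted p = 5.0e-06), and of its other 2 probe sets in the fit 1 passed, as lower. Lrp1, a lipoprotein receptor, rose by 0.66 (adjusted p = 5.2e-06) on the brighter of 2 probe sets, and the dimmer did not pass. Cd36, the fatty acid translocase and a PPAR-gamma target, lay below the filter on all 3 probe sets.

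PPAR factors and their targets had 5 of 13 higher and 0 lower (median 0.17), with Angptl4, Pdk4 (0.60, adjusted p = 0.00026), a kinase that switches off pyruvate dehydrogenase, and Cpt1a (0.53, adjusted p = 8.2e-05), which admits fatty acids to mitochondria, changing most; the other 2 Cpt1a probe sets in the fit did not pass. Ppard, the PPAR of muscle and many other tissues, did not pass (0.17, adjusted p = 0.38), and Ppara lay below the filter on all 3 probe sets. On the brightest, the pyruvate arrays (1.8 to 9.5) all lay below the untreated arrays (11.8 to 22.8). Its change was -0.66 in the fit without the filter, where it did not pass (adjusted p = 0.055). The acyl-CoA dehydrogenases of fatty acid oxidation differed among themselves. Acadvl, which acts on very long chains, rose by 0.28 (adjusted p = 0.0077), while Acadm (-0.03, adjusted p = 0.73) and Acadl (-0.11, adjusted p = 0.18) did not pass, although Acadl was lower after cyclic loess (adjusted p = 0.026). Slc25a20, the carnitine carrier of mitochondria, rose by 0.39 (adjusted p = 0.016) on the brighter of 2 probe sets, and the dimmer did not pass. Angptl4 stands on this list and on that of the lipases, so the lists are not independent.

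Of the other adipogenic regulators 6 of 20 rose and 2 fell (median 0.07). Ebf1, a factor that promotes fat cell formation, was at 120 ± 23.0 in pyruvate cells and 74.0 ± 11.3 in untreated cells (SD, n = 3 each), a change of 0.59 (adjusted p = 0.0072); of its other 3 probe sets in the fit 1 passed, as higher. Nr3c1, the glucocorticoid receptor, rose by 0.54 (adjusted p = 0.00019) on the brightest of 5 probe sets in the fit, of which 1 other passed as higher and 3 did not pass. Tcf7l2, a factor of the Wnt pathway, rose by 0.56 (adjusted p = 0.00073) on the brighter of 2 probe sets in the fit, and the dimmer did not pass. The genes that fell, named after their values were seen, were Klf4 (-0.53, adjusted p = 7.9e-05), which acts upstream of Cebpb in preadipocytes, and Srebf1 (-0.22, adjusted p = 0.037), the lipogenic factor, whose call was lost after cyclic loess (adjusted p = 0.054) and median centring (adjusted p = 0.080). Rxra, the partner of PPAR-gamma on DNA, was at -0.19 (adjusted p = 0.16).

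**Figure D4:**
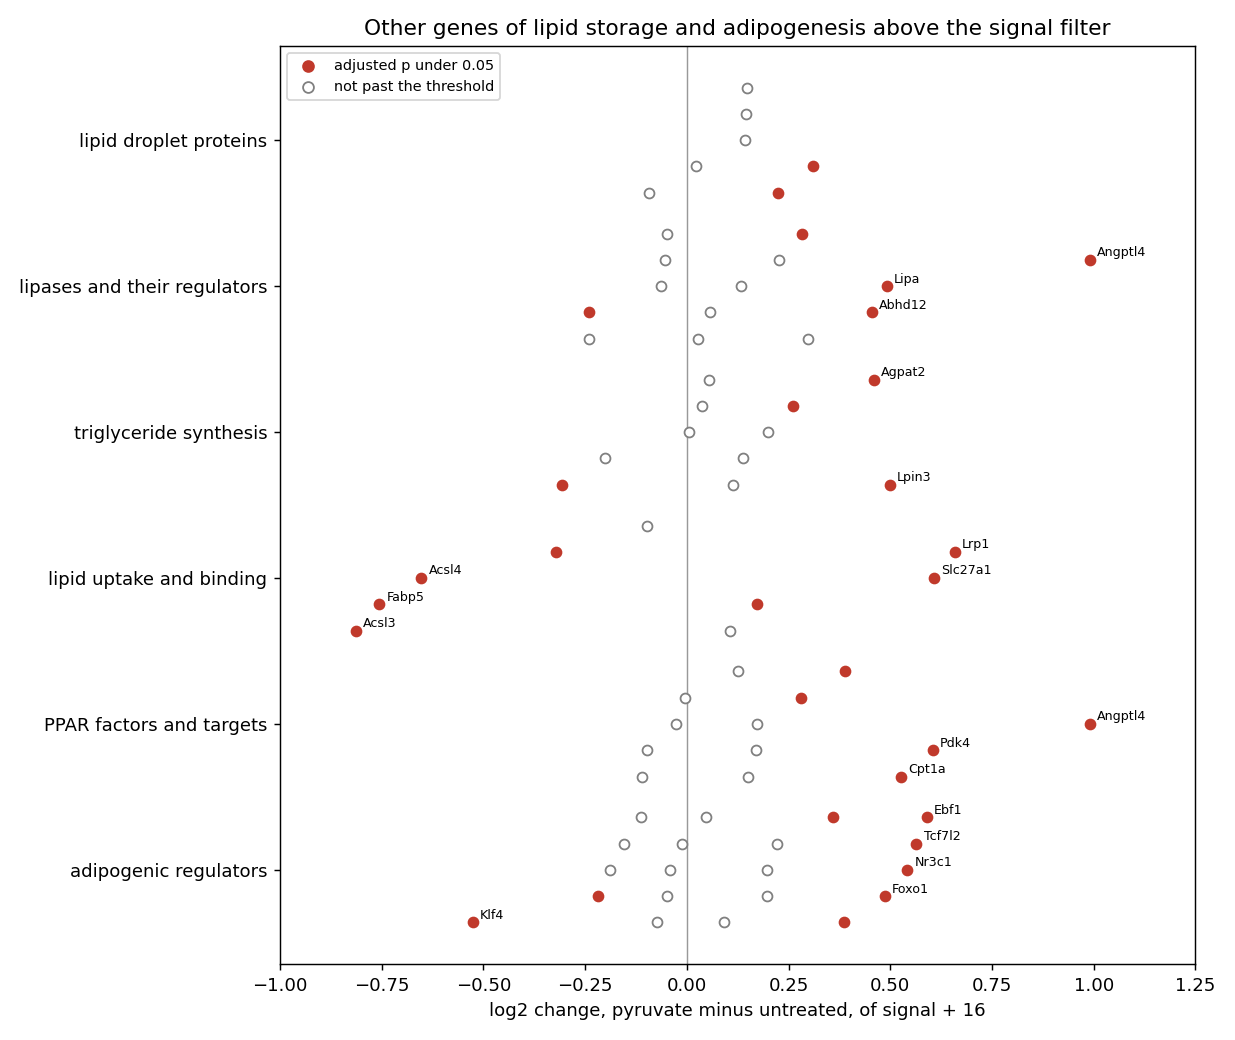
Log2 change, pyruvate minus untreated (horizontal axis), of the listed genes above the signal filter, 1 point per gene and list; filled red points have an adjusted p under 0.05 and those beyond 0.45 in size are named. Angptl4 (0.99) lies furthest right and Acsl3 (-0.81) furthest left.

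Markers of cell types were read alongside. Of 12 adipocyte markers 9 were measured and 7 lay below the filter, among them Adipoq at 11.3 ± 2.58 in pyruvate cells and 9.83 ± 4.32 in untreated cells and Lep at 1.00 ± 0.46 in pyruvate cells and 1.07 ± 0.55 in untreated cells (SD, n = 3 each). None of the 2 in the fit passed, and the summed signal of the 9 was 154 to 165 on pyruvate arrays and 124 to 159 on untreated arrays. Of 10 myogenic markers 9 were in the fit, of which 2 rose and 6 fell (median -0.66), and the sum of the 10 was 10675 to 12026 in pyruvate and 14096 to 14478 in untreated cells. All such sums lean on the brightest probe sets. Here Chrna1, which rose, alone averaged 5280.6 in pyruvate and 3786.5 in untreated cells. Myogenin (Myog), the factor of muscle differentiation, fell by 2.96 on the log2 scale (adjusted p = 1.1e-08). The muscle genes Acta1 (-3.28), Tnnc2 (-3.3) and Mylpf (-2.53) also fell and passed. Mean signals in pyruvate and untreated cells were 87.2 and 982 for Acta1, 35.2 and 486 for Tnnc2, and 225 and 1360 for Mylpf. The untreated cells thus had higher signals of these genes, although both groups were undifferentiated by their labels. The genes that rose were Myod1, the other myoblast factor, by 0.26 (adjusted p = 0.0029), and Chrna1, a subunit of the acetylcholine receptor, by 0.47 (adjusted p = 0.00018). Chrna1 is a bright probe set, and its change was 0.13 after quantile normalization and 0.30 after cyclic loess. That of Myod1 was 0.23 and 0.19, and both genes still passed. Myf5, a factor of myoblasts, fell by 0.66 (adjusted p = 0.00041), while desmin (Des), at 1735 ± 56.0 in pyruvate and 1835 ± 16.6 in untreated cells (SD, n = 3 each), did not pass (it did as lower after quantile normalization, adjusted p = 0.035, and cyclic loess, adjusted p = 0.0099); Pax7 was below the filter. Of 7 macrophage markers 3 were in the fit and 1 rose, Cd14 (0.95, adjusted p = 9.6e-06), with a sum over the 7 of 384 to 443 in pyruvate and 247 to 275 in untreated cells. Cd14 alone was at 224 ± 11.9 in pyruvate cells and 108 ± 5.88 in untreated cells (SD, n = 3 each). The other 6 overlapped between groups and did not pass on their brightest probe sets, although a dimmer one of Csf1r passed as higher; Ptprc and Adgre1 were below the filter. Of 7 endothelial markers 1 was in the fit, Kdr, which fell by 0.43 (adjusted p = 0.043, and 0.058 to 0.063 under other scalings). Its pyruvate signals (23.7 to 27.5) lay under the filter signal of about 30.3 and its untreated signals (34.1 to 48.1) above it. It thus entered the fit through its untreated arrays, and in the fit without the filter it did not pass (adjusted p = 0.13). The sum of the 7 endothelial markers was 53.3 to 65.7 in pyruvate and 80.2 to 114 in untreated cells. The part of the difference in myogenic markers in the values of the lipid genes was not tested. In bulk samples fewer cells of a type and less RNA per cell cannot be told apart.

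**Figure D5:**
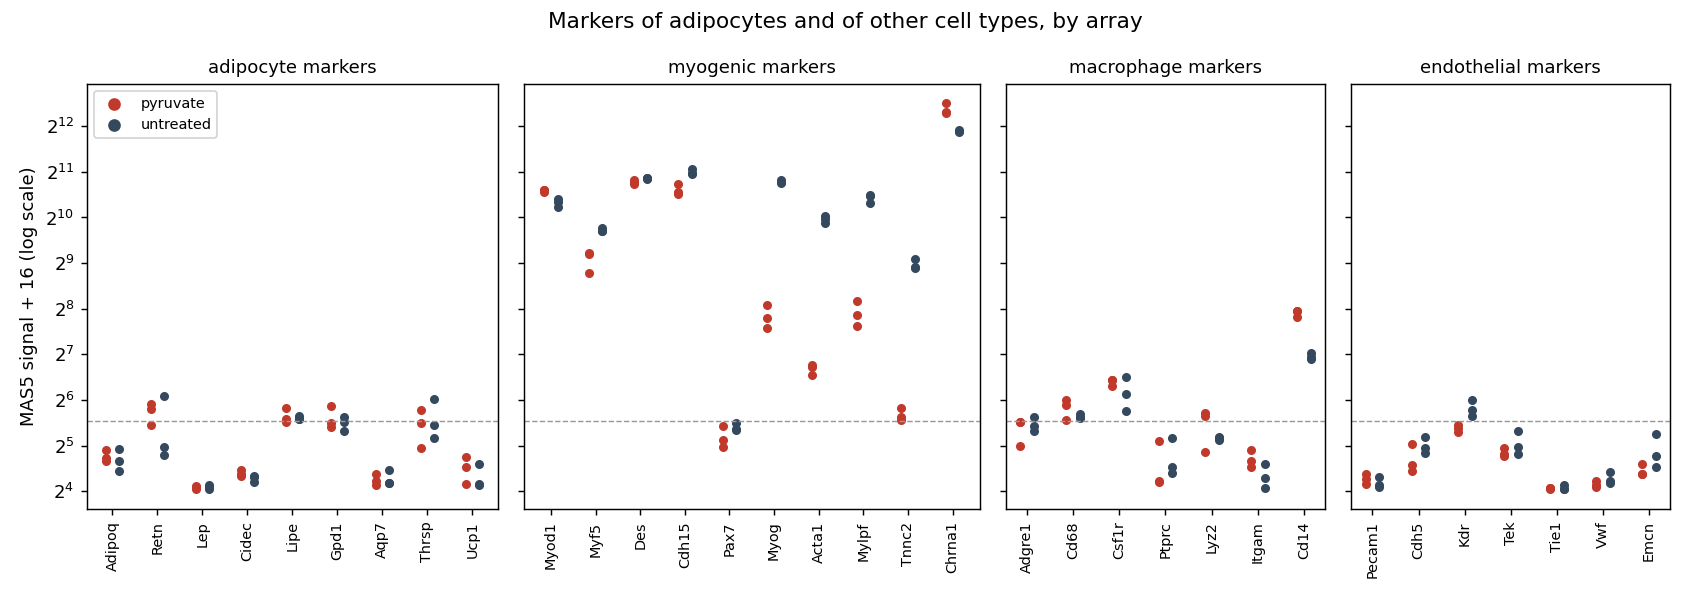
MAS5 signal + 16 (vertical axis, log scale) of the marker genes on each array, with pyruvate in red to the left and untreated in dark to the right of each gene; the dashed line is the signal filter. Most adipocyte, macrophage and endothelial markers lie at or under the line in both groups, while the myogenic markers other than Pax7 lie above it in untreated cells.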

How the data were processed

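RNA from 6 C2C12 samples was profiled on Affymetrix Mouse430_2 arrays. The authors deposited a linear intensity for each probe set; MAS5 is named in the submitters' processing notes, without version or settings. Every array had the same trimmed mean, 150 with 2% left off each end, so a change in total RNA cannot be seen. The precision is limited by the number of arrays, 3 a group; correlations were 0.985 to 0.991 within groups and 0.979 to 0.983 between them.

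Probe sets were named from the platform annotation, and 64 Affymetrix controls left out. Signals were taken as log2(signal + 16), probe sets at or above the median of mean log2 values (5.53) kept, and the groups compared with limma 3.58.1 in R 4.3.3 (variance trend, two-sided, Benjamini-Hochberg). The step was tested on simulated data with known changes. Of 50 changes of each size, it recovered 6 at a log2 size of 0.25, 29 at 0.5, 45 at 1 and 49 at 2. It also called 8 probe sets without a change. Far fewer probe sets were changed there than passed in the real fit, so these shares do not carry over to it directly. The members, lists and motifs were chosen with earlier results of these data known. Named were all members, up to 3 passing genes per list with the largest absolute change, and the 5 nearest profiles to the members with the highest and lowest change, passing over predicted or clone names. Marker genes could be named freely; every other listed gene in the text, including those that did not pass, was named after its values were seen. Listed genes without a probe set of 1 symbol, such as Plin1, were not analysed here. Alternatives covered pseudocounts, filters, scaling, variance trend, replicate block and arrays left out. Same-numbered arrays did not deviate together over all probe sets tested (r = -0.009 to 0.021), and the reported fit does not pair them. A link between same-numbered arrays that is limited to some genes would not show in these correlations. Figures used matplotlib 3.10.9.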

Additional observations from a re-analysis of the deposited data

How the results depend on the processing

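All 11 lipid and adipogenic probe sets in the fit stayed higher with pyruvate in each of the 15 alternatives in which they were tested (160 values), 147 of them on the same side of the threshold. The count past the threshold was 9 as reported, 6 with the filter at the 75th percentile (which tests fewer of them), 8 without a filter or a variance trend, and 7 to 9 with 1 array left out. Plin3 lost its call without the filter, without the variance trend and with the replicate block, as well as with 4 of the arrays left out; Pnpla2 lost it with 4 arrays left out. The cause was not tested. Among the other genes of lipid storage and adipogenesis, the 8 that fell became 5 with median centring, 5 without the signal filter and 5 without the variance trend, and 5 to 7 with 1 array left out, the lowest without pyruvate replicate 3 and without untreated replicate 2; the number that rose was 18 to 24. With the replicate number as a block, 3510 probe sets were higher and 3407 lower, against 3678 and 3572 without it, and 9 of the 11 passed, with Cebpd in place of Plin3. Signals near the floor limit what can be said of Fabp4 and of most adipocyte markers.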
